A study of Saccharomyces cerevisiae with 12 samples.

Results

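The 35 genes described here carry sulfur through Saccharomyces cerevisiae: they take up and reduce sulfate, build homocysteine, cysteine and methionine, run the methyl cycle of S-adenosylmethionine (AdoMet), import organic sulfur compounds and regulate these steps. They were chosen by gene symbol from what is known of the pathway, with no threshold on any measured value. All 35 had a probe set on the arrays, among 5449 S. cerevisiae genes measured. The study profiled strain CENPK 113-7D, a haploid laboratory strain, in batch culture in SD medium with 2% glucose. Total RNA was labelled with biotin and hybridised to Affymetrix arrays, 3 in each of 4 groups: log phase, day 2, day 6 and day 10. All 12 samples share the strain and the medium, and the labels name no mutation or added agent in any of them, so time in culture is the 1 difference they record. Whether the days run from the start of cultivation, as the design text has it, or from entry into stationary phase, as the sample labels have it, is not settled here. Nothing in the labels ties the replicate arrays to separate cultures, so a p-value here measures the spread between these arrays, and that spread may be technical.

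Yeast imports sulfate, activates it with ATP and reduces it in steps to sulfide, which is joined to O-acetylhomoserine to give homocysteine. Homocysteine is methylated to methionine and on to AdoMet, the methyl donor of most methylation reactions, whose spent form returns to homocysteine, and a side branch called transsulfuration links homocysteine to cysteine. The activator Met4, held on DNA by Cbf1, Met28, Met31 and Met32, turns these genes on when sulfur amino acids run short, and the F-box protein Met30 marks Met4 with ubiquitin when they are plentiful.

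The labels were checked against markers of growth and of stationary phase. The 9 stationary phase markers, among them the small heat shock genes HSP12 and HSP26, were each called higher than in log phase on every one of the 3 days. Of all genes 39.0%, 41.6% and 39.5% were called higher on days 2, 6 and 10. Of 7 measured markers of growing cells, which include ribosomal protein genes, 5 were called lower on day 2, 7 on day 6 and 6 on day 10. The shares of all genes called lower were 41.5%, 41.1% and 39.8%. The hexose transporter HXT3 was called higher on day 2. The mating type a markers had means between 6.74 (BAR1, day 10) and 12.28 (MFA2, day 2). Of the 4 mating type alpha markers, MF(ALPHA)1 had a mean of 10.48 on day 2 against 6.01 in log phase, and the others had means between 5.80 and 8.10. Between 5137 and 5259 genes per array lay above background, defined as the 95th percentile of the 1746 probe sets for another yeast species. With 3 arrays a time, precision is limited by their number.

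Values are log2 signals. A difference of 1 is a 2-fold change, differences carry the standard error (SE) of the limma fit with n = 3 arrays per time, levels carry the standard deviation (SD), and a gene is called at an adjusted p under 0.05. A difference describes a gene relative to the other genes on its array, and a level compares one gene with itself only. Centring the arrays on 27 hybridisation control probe sets instead moved the median of all genes by -0.42 on day 2, -1.19 on day 6 and -0.97 on day 10 against log phase. Between later times that median shifted by -0.77 (day 2 to day 6), 0.22 (day 6 to day 10) and -0.55 (day 2 to day 10). On that scale a gain over log phase smaller than the shift of its day has the other sign. Gains of the sulfur genes over log phase that kept their sign there and lost their call were MET28 on day 2 (0.13), SUL2 (0.31) and MET32 (0.078) on day 6, and MET5 (0.066), STR2 (0.19), MUP1 (0.073), MET4 (0.19) and MET28 (0.17) on day 10. From day 2 to day 6 the gains of MET2 (0.085), STR3 (0.27) and MUP1 (0.15) lost theirs, and so did the fall of MET32 from day 6 to day 10 (-0.33). Fewer transcripts per cell and a different cell population cannot be told apart in these bulk samples.

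Replicate 1 of day 2 stood apart for the sulfur genes. On that array 30 of the 35 had the lowest of the 3 day 2 values, against 44.0% of all genes. The median difference between that array and the mean of the other day 2 arrays was -0.51 over the 35 genes and -0.02 over all genes. SUL1 (-1.37) and MET3 (-1.25) had the lowest and second lowest differences of all 5449 genes, MET5 (-0.99) the 6th and MUP1 (-0.91) the 9th. Of 85 genes at least 0.5 lower on that array 18 were among these 35, and of 74 genes at least 0.5 higher 0 were. STR2 (0.28), the iron-sulfur gene MET18 (0.27), MET4 (0.17) and MET12 (0.089) differed in the other direction. For 8 control genes with probe sets at both ends, which report on RNA integrity, the mean 3' minus 5' difference was 1.13 on that array and 0.75 and 0.69 on the other day 2 arrays, and its part in these differences was not tested. The median SD on day 2 was 0.31 over the 35 genes and 0.10 over all genes. In comparisons of day 2 with another time, calls that changed without that array are given both ways. Other differences moved and kept their call, such as the steps from day 2 to day 6 of STR3 (1.04 to 0.79), MET2 (0.85 to 0.62), SAM1 (-0.94 to -1.19) and MET13 (-0.85 to -1.04) without that array. Without it, the day 2 differences from log phase were 2.74 for SUL1, 1.63 for SUL2, 2.09 for MET10, 1.43 for MET5, 1.01 for MET2, 1.55 for MET17, 1.51 for MET13, 1.48 for MET30, 0.99 for SAM3 and -1.50 for SAM4, all still called. With the 3' minus 5' difference as a covariate the day 2 gains of MET5 (0.28, adjusted p = 0.306), MET2 (0.13, adjusted p = 0.504) and MET28 (0.072, adjusted p = 0.693) were not called. Within a time that difference varied most on day 2, with an SD of 0.24 against 0.05 to 0.07 at the other times. Every fit with this covariate therefore rests largely on replicate 1 of day 2, carried over to all times. It is no separate check of RNA integrity.

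**Figure D1:**
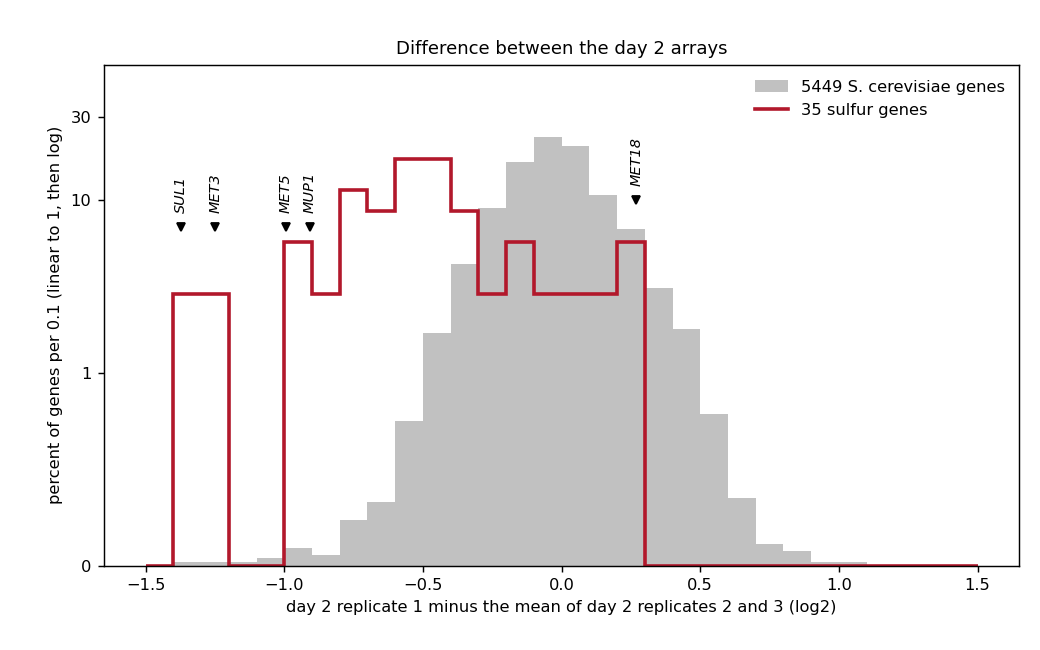
Difference between day 2 replicate 1 and the mean of the other day 2 arrays in log2 (horizontal axis), as the percent of genes in bins 0.1 wide (vertical axis, linear up to 1 and logarithmic above), for all 5449 genes (grey) and the 35 sulfur genes (red outline). The red outline lies to the left of the grey distribution, with a median of -0.51 against -0.02, and SUL1, MET3, MET5, MUP1 and MET18 are marked.

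With the arrays uncentred, the sulfur genes stood highest on day 10. The times of highest and lowest mean were not counted with the arrays centred on the hybridisation controls. So centred, MET14 (-0.13), MET1 (-0.16) and MET6 (-0.27), for example, lay below log phase on day 10, though their uncentred means were highest there. Of the 35 genes, 22 had their highest mean on day 10 (15.9% of all genes), 5 in log phase (38.0%), 4 on day 2 (20.8%) and 4 on day 6 (25.3%). The lowest mean lay in log phase for 16 (37.0%), on day 2 for 11 (23.3%), on day 6 for 7 (22.6%) and on day 10 for 1 (17.1%), the AdoMet permease gene SAM3. On day 10 against log phase 26 were called higher and 5 lower, beside 39.5% and 39.8% of all genes, and the median difference was 0.72 against -0.01 over all genes; centred on the hybridisation controls the counts were 10 higher and 13 lower and the median -0.24. By at least 2-fold, 15 were higher and 1 was lower, beside 10.8% and 8.46% of all genes; on day 2 the numbers were 8 and 3 (12.2% and 10.7%) and on day 6 they were 8 and 5 (13.4% and 13.5%). The earlier days were mixed: 15 higher and 10 lower on day 2 (39.0% and 41.5% of all genes, medians 0.03 and -0.02), and 16 higher and 10 lower on day 6 (41.6% and 41.1%, medians 0.25 and 0.00). Centred on the hybridisation controls, the counts were 10 higher and 18 lower on day 2 and 4 higher and 23 lower on day 6. Without replicate 1 of day 2 the counts for day 2 were 16 higher and 6 lower, and with the 3' minus 5' signal as a covariate 9 higher and 17 lower. All shares of all genes printed here come from the fit to the uncentred values of all 12 arrays without a covariate. None was taken under the other settings, so counts under those settings cannot be set against all genes.

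More of the sulfur genes were called higher than lower from day 6 to day 10. From day 2 to day 6, 15 of the 35 genes were called higher and 10 lower, near the 35.2% and 31.9% of all genes. These counts became 4 and 22 when centred on the hybridisation controls. From day 6 to day 10, 18 were higher and 1 was lower, beside 28.8% and 32.1% of all genes, with a median of 0.37 against -0.02 over all genes. Centred on the hybridisation controls, 22 were higher and 0 lower in that last interval, and with the 3' minus 5' covariate 12 were higher and 8 lower. From day 2 to day 10, 23 were higher and 4 lower, beside 34.9% and 32.1% of all genes, and 8 and 10 when centred on the hybridisation controls. By at least 2-fold, 5 were higher and 3 lower from day 2 to day 6 (2.50% and 3.91% of all genes), 6 and 0 from day 6 to day 10 (3.40% and 1.74%), and 6 and 1 from day 2 to day 10 (3.74% and 4.15%). A moderated F test among days 2, 6 and 10 called 29 of the 35 genes (85.0% of all genes), and the F test over the 4 times called 35 (95.5%). Both shares were near those of all genes.

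**Figure D2:**
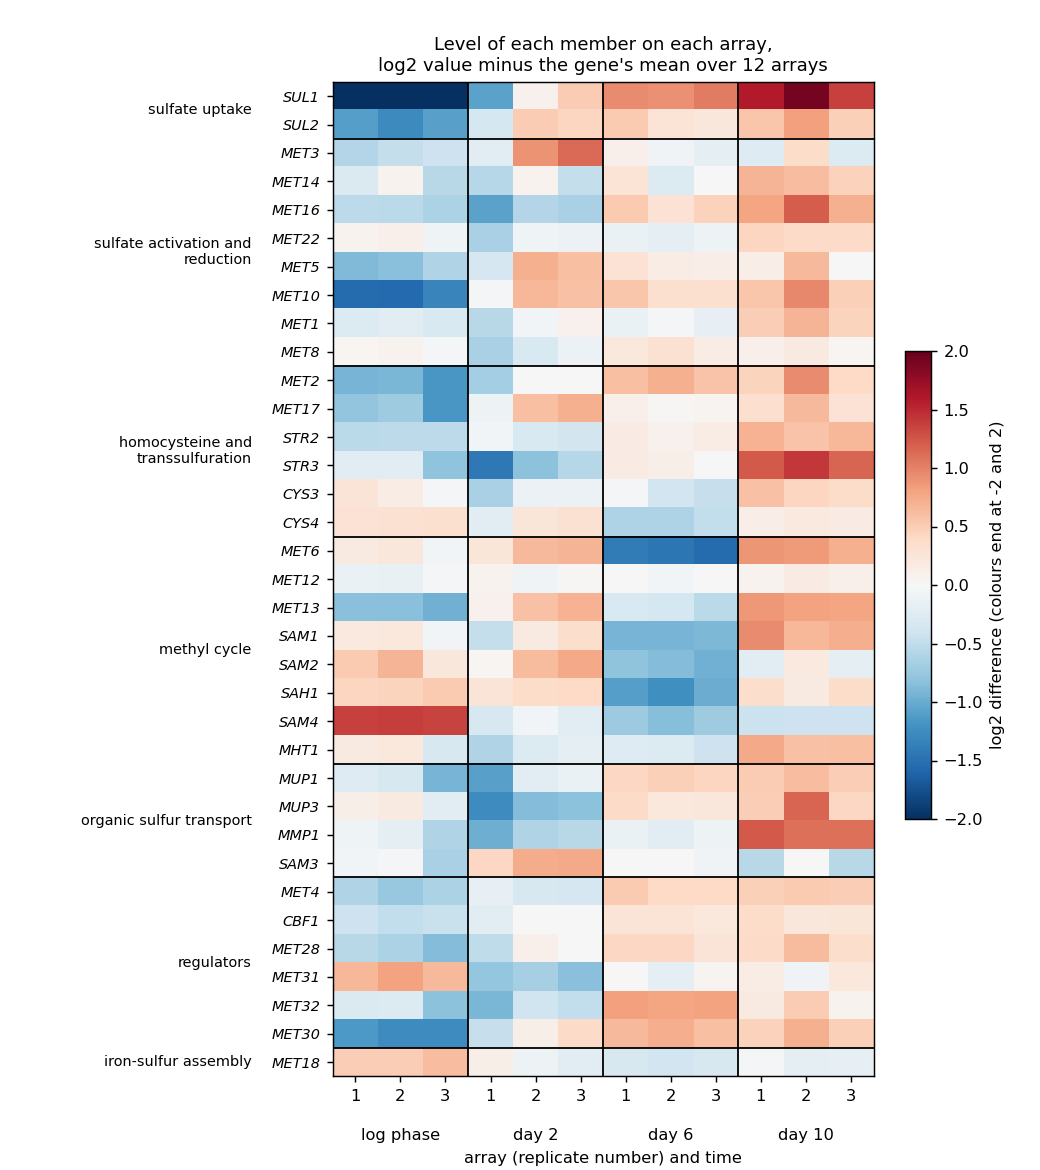
Log2 level of each of the 35 genes on each of the 12 arrays, minus the gene's mean over the 12 arrays (colour, ending at -2 and 2). Rows are genes grouped by role and columns are arrays by time and replicate. SUL1 is low in log phase and high on day 10, most methyl cycle genes are low on day 6, and day 2 replicate 1 is lower than the other day 2 arrays in 30 of the 35 rows.

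Both high-affinity sulfate permeases rose with time out of log phase, SUL1 by more than SUL2. SUL1 (YBR294W) read 5.61, 5.53 and 5.88 in log phase, 7.03, 8.19 and 8.62 on day 2, 9.06, 9.02 and 9.14 on day 6, and 9.70, 10.03 and 9.48 on day 10. No array of a later time fell below any array of an earlier one, and 2 of the 3 log phase arrays lay below background. The change from log phase to day 10 was 4.06 ± 0.29 (adjusted p = 2.16e-08), the 8th highest of 5449 genes, and SUL1 was 14.7-fold higher on day 10 when log phase values below background were raised to it. It was higher by 2.28 ± 0.29 on day 2 (adjusted p = 6.45e-06) and by 3.40 ± 0.29 on day 6 (adjusted p = 9.35e-08) against log phase. Between days 2 and 6 SUL1 rose by 1.12 ± 0.29 (adjusted p = 0.00383), or 0.67 without replicate 1 of day 2, and the step from day 6 to day 10, 0.66 ± 0.29, was not called (adjusted p = 0.0633) unless replicate 1 or replicate 3 of day 2 was left out of the fit.

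SUL2 (YLR092W) read 6.56, 6.40 and 6.58 in log phase, 7.31, 8.18 and 8.10 on day 2, 8.20, 7.94 and 7.89 on day 6, and 8.22, 8.49 and 8.14 on day 10. All 9 later arrays lay above the log phase arrays, and the later days overlapped each other. It was higher than in log phase by 1.35 ± 0.18 on day 2, 1.50 ± 0.18 on day 6 and 1.77 ± 0.18 on day 10 (adjusted p from 8.47e-07 to 1.09e-05). Both permeases stayed above their log phase level when centred on the hybridisation controls, where the median of the pair was 1.39, 1.26 and 1.95 on days 2, 6 and 10, with SUL2 no longer called on day 6 at 0.31 (adjusted p = 0.0758). The F test among days 2, 6 and 10 called SUL1 (adjusted p = 0.000247) and did not call SUL2 (adjusted p = 0.111).

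The first enzymes of sulfate activation moved at different times. MET3, ATP sulfurylase, read 7.61, 7.72 and 7.78 in log phase, 7.97, 9.10 and 9.33 on day 2, 8.30, 8.13 and 8.02 on day 6, and 7.94, 8.56 and 7.93 on day 10. Its highest mean was on day 2, where replicate 1 lay more than 1 unit below the others. MET3 was higher on day 2 by 1.10 ± 0.27 (adjusted p = 0.00211), by 1.51 without replicate 1 and by 0.0063 once the 3' minus 5' difference was a covariate (adjusted p = 0.983), while from day 2 to day 6 it was at -0.65 ± 0.27 (adjusted p = 0.0484). That call was lost in most fits that left out 1 array, and the difference became 1.53 (adjusted p = 0.011) once the 3' minus 5' difference was a covariate.

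MET14, the kinase that acts on the product of Met3, had means of 8.77 ± 0.31, 8.71 ± 0.34, 9.02 ± 0.27 and 9.61 ± 0.11 (SD) in log phase and on days 2, 6 and 10, and all 3 day 10 arrays lay above the rest. MET16, which reduces the activated sulfate to sulfite, read 7.29, 7.27 and 7.16 in log phase, 6.74, 7.22 and 7.16 on day 2, 8.32, 8.10 and 8.27 on day 6, and 8.59, 9.01 and 8.52 on day 10. Log phase and day 2 overlapped, day 6 lay above both and day 10 above day 6. MET16 was higher by 1.47 ± 0.13 on day 10 against log phase (adjusted p = 2.85e-07) and by 1.19 ± 0.13 from day 2 to day 6 (adjusted p = 5.32e-06). Its rise on day 6 against log phase, 0.99 ± 0.13 (adjusted p = 1.15e-05), became -0.20 when centred on the hybridisation controls, and that of MET14 on day 10, 0.84 ± 0.18 (adjusted p = 0.000779), became -0.13.

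MET22, the phosphatase that clears the nucleotide left after sulfate reduction, had means of 9.10 ± 0.10, 8.79 ± 0.32, 8.93 ± 0.05 and 9.47 ± 0.03 at the 4 times in order. Its call as lower on day 2, at -0.32 ± 0.12 (adjusted p = 0.0231), was lost without replicate 1 of that day (-0.14, adjusted p = 0.073).

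Sulfite reductase, the next enzyme, is built from the products of MET5 and MET10, and both genes were high from day 2 on. MET10 read 7.12, 7.10 and 7.34 in log phase, 8.64, 9.31 and 9.25 on day 2, 9.21, 8.98 and 8.98 on day 6, and 9.20, 9.61 and 9.13 on day 10. MET5 read 7.59, 7.65 and 7.88 in log phase, 8.14, 9.19 and 9.09 on day 2, 8.78, 8.64 and 8.61 on day 6, and 8.61, 9.12 and 8.49 on day 10. For both genes all 9 later arrays lay above log phase and the 3 days overlapped. MET10 was higher by 1.88 ± 0.16, 1.87 ± 0.16 and 2.13 ± 0.16 on days 2, 6 and 10 (adjusted p from 4.84e-08 to 1.48e-07). MET5 was higher by 1.10 ± 0.23, 0.97 ± 0.23 and 1.03 ± 0.23 (adjusted p from 0.000516 to 0.00134), and its day 6 difference became -0.22 when centred on the hybridisation controls. Neither was called among days 2, 6 and 10 (adjusted p = 0.856 for MET5 and 0.255 for MET10), but without replicate 1 of day 2 MET5 was called lower on day 6 by -0.46 and on day 10 by -0.40. With the covariate MET5 was called higher instead, by 1.50 (adjusted p = 0.014) and 0.82 (adjusted p = 0.0172), so its course after day 2 has no settled direction.

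MET1 and MET8, which make siroheme, the prosthetic group of sulfite reductase, stayed within 1 unit of log phase. MET1 had means of 7.63 ± 0.05, 7.72 ± 0.33, 7.79 ± 0.07 and 8.44 ± 0.13 at the 4 times in order, and rose from day 6 to day 10 by 0.65 ± 0.13 (adjusted p = 0.000617; 0.18 and not called, adjusted p = 0.144, with the covariate). Against log phase it was higher on day 10 by 0.81 ± 0.13 (adjusted p = 4.97e-05), which became -0.16 when centred on the hybridisation controls. On day 2 it was at 0.09 ± 0.13 (adjusted p = 0.513), or 0.28 without replicate 1 (adjusted p = 0.00494) and -0.42 with the covariate (adjusted p = 0.00221). MET8 had means of 7.49 ± 0.05, 7.11 ± 0.27, 7.69 ± 0.08 and 7.57 ± 0.07. Over the 8 genes of sulfate activation and reduction, 3 were called higher and 2 lower on day 2, 3 and 0 on day 6, and 6 and 0 on day 10, against log phase. The shares of all genes were 39.0% and 41.5%, 41.6% and 41.1%, and 39.5% and 39.8%, so the share called higher on days 2 and 6 was near that of all genes. Centred on the hybridisation controls, the counts were 3 and 4, 1 and 5, and 2 and 3.

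**Figure D3:**
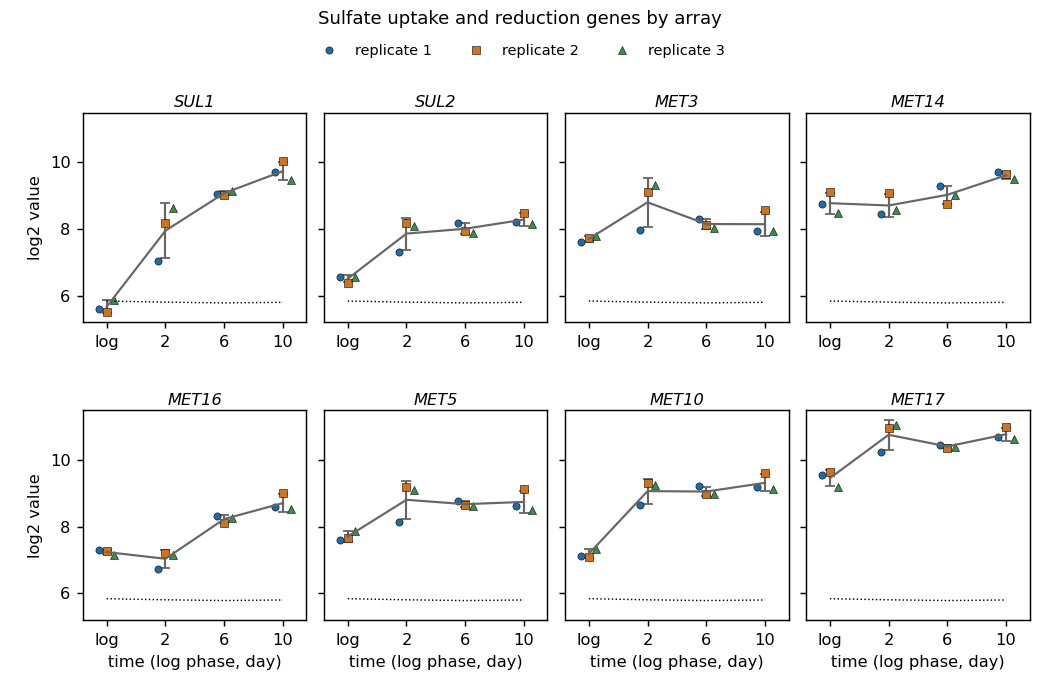
Log2 level (vertical axis) of the sulfate permeases, 5 genes of sulfate activation and reduction and MET17 at each time (horizontal axis), with 1 point per array, the line through the means, error bars of 1 SD (n = 3) and the background as a dotted line. SUL1 climbs from background level to a mean of 9.74 on day 10, MET10 and MET5 are high from day 2, MET16 from day 6, and MET3 peaks on day 2 with replicate 1 low.

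Sulfide is fixed into homocysteine by MET17, O-acetylhomoserine sulfhydrylase, on the acceptor that MET2, homoserine acetyltransferase, makes. MET17 read 9.55, 9.63 and 9.19 in log phase, 10.25, 10.95 and 11.06 on day 2, 10.45, 10.36 and 10.40 on day 6, and 10.68, 11.00 and 10.64 on day 10. MET2 read 6.97, 6.99 and 6.75 in log phase, 7.23, 7.91 and 7.92 on day 2, 8.51, 8.62 and 8.49 on day 6, and 8.35, 8.85 and 8.31 on day 10. MET17 was high from day 2 on, and MET2 gained in a second step by day 6. MET17 was higher than in log phase by 1.30 ± 0.18, 0.95 ± 0.18 and 1.32 ± 0.18 on days 2, 6 and 10 (adjusted p from 1.41e-05 to 0.000243). MET2 was higher by 0.78 ± 0.17, 1.63 ± 0.17 and 1.60 ± 0.17 (adjusted p from 9.37e-07 to 0.000934) and rose by 0.85 ± 0.17 from day 2 to day 6 (adjusted p = 0.00073). On day 6 the difference of MET17 became -0.24 when centred on the hybridisation controls. From day 2 to day 6 MET17 was at -0.35 ± 0.18 and not called (adjusted p = 0.101), and without replicate 1 of day 2 it was called lower at -0.60. With the covariate MET17 was called higher there, at 1.01 (adjusted p = 0.0219).

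The transsulfuration genes differed on day 6 and were all called higher from day 6 to day 10. STR2 and STR3 carry sulfur from cysteine to homocysteine, and CYS4 and CYS3 carry it from homocysteine to cysteine. STR3, cystathionine beta-lyase, read 8.36, 8.36 and 7.78 in log phase, 7.16, 7.76 and 8.01 on day 2, 8.75, 8.71 and 8.59 on day 6, and 9.81, 9.99 and 9.76 on day 10. Its arrays stepped up without overlap from day 2 to day 6 and again to day 10. STR3 rose by 2.21 ± 0.19 from day 2 to day 10 (adjusted p = 4.04e-07), the 8th highest change of 5449 genes in that comparison. The steps were 1.04 ± 0.19 to day 6 and 1.17 ± 0.19 from there to day 10 (adjusted p = 0.000314 and 0.000142). Its call as lower on day 2 against log phase (-0.52 ± 0.19, adjusted p = 0.0212) was lost without replicate 1 of day 2 (-0.28, adjusted p = 0.0992).

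STR2, cystathionine gamma-synthase, had means of 7.50 ± 0.01, 7.78 ± 0.16, 8.16 ± 0.04 and 8.67 ± 0.07 at the 4 times in order and was higher on day 10 than in log phase by 1.16 ± 0.07 (adjusted p = 6.08e-09). CYS3, cystathionine gamma-lyase, had means of 9.58 ± 0.15, 9.17 ± 0.31, 9.17 ± 0.23 and 9.92 ± 0.11. CYS4, cystathionine beta-synthase, read 10.42, 10.44 and 10.44 in log phase, 9.89, 10.36 and 10.44 on day 2, 9.50, 9.50 and 9.64 on day 6, and 10.26, 10.32 and 10.30 on day 10. So CYS4 was lowest on day 6 with no overlap with any other time, while STR2 and STR3 stood above log phase there. CYS4 was lower by -0.88 ± 0.11 on day 6 against log phase (adjusted p = 3.92e-06) and then rose by 0.74 ± 0.11 to day 10 (adjusted p = 5.92e-05), and CYS3 rose by 0.75 ± 0.14 in that last interval (adjusted p = 0.000534; 0.44 and not called, adjusted p = 0.0703, with the covariate). The call of CYS3 as lower on day 2 (-0.41 ± 0.14, adjusted p = 0.0167) was lost without replicate 1 of that day (-0.24, adjusted p = 0.0772).

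Most methyl cycle genes were low on day 6 and higher on day 10. Of its 8 genes, 6 were called lower on day 6 relative to log phase, against 41.1% of all genes, and 1, MET13, higher, against 41.6%. From day 2 to day 6, 6 were lower (31.9%) and 0 higher (35.2%), and from day 6 to day 10 all 8 were higher (28.8%) with a median of 1.09. SAM4 stayed well below log phase on day 10. Of the 7 growing cell markers, 7 were called lower from day 2 to day 6, and 4 were called higher and 1 lower from day 6 to day 10. RPL5 had means of 11.74, 11.24, 10.02 and 11.43 and RPS3 of 12.23, 11.65, 10.76 and 11.59 at the 4 times in order. HXT3 (10.53, 11.77, 7.62 and 7.33) and HTB2 (10.01, 8.55, 8.09 and 7.96) had their lowest means on day 10. The part of these markers in the dip was not tested. Centred on the hybridisation controls, all 8 were lower on day 6 than on day 2 and in log phase, and 7 were higher on day 10 than on day 6. On that scale the median of all genes itself moved by -0.77, -1.19 and 0.22 in these comparisons. These counts can therefore not show a dip particular to the methyl cycle. The 3' minus 5' difference of the 8 control genes was highest on day 6, at 1.65 ± 0.05. It was 1.25 ± 0.07 in log phase, 0.86 ± 0.24 by day 2 and stood at 1.28 ± 0.07 by day 10 (SD, n = 3). With it as a covariate the fall from day 2 to day 6 stayed called for MET6 and SAH1 and was lost for SAM1, SAM2 and MET13.

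MET6, the methionine synthase that methylates homocysteine, had the largest change of the 8 from day 2 to day 6 and from day 6 to day 10. MET6 (YER091C) read 10.61, 10.66 and 10.38 in log phase, 10.67, 11.09 and 11.12 on day 2, 9.03, 8.99 and 8.90 on day 6, and 11.31, 11.29 and 11.15 on day 10. The highest day 6 array lay more than 1 unit below the lowest array of any other time. MET6 was lower by -1.58 ± 0.11 on day 6 against log phase (adjusted p = 1.08e-08) and by -1.99 ± 0.11 against day 2 (adjusted p = 8.76e-09). It then rose by 2.28 ± 0.11 to day 10 (adjusted p = 8.84e-09), the third highest change of 5449 genes, and was 0.70 ± 0.11 above log phase (adjusted p = 4.80e-05), a difference that became -0.27 when centred on the hybridisation controls. With the 3' minus 5' covariate the steps were -1.28 down and 1.95 up, both still called. Between days 2 and 10 MET6 differed by 0.29 ± 0.11 (adjusted p = 0.0306), or 0.15 without replicate 1 of day 2 (adjusted p = 0.133).

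SAH1, the hydrolase that returns spent AdoMet to homocysteine, read 11.21, 11.24 and 11.32 in log phase, 11.05, 11.15 and 11.19 on day 2, 9.68, 9.56 and 9.80 on day 6, and 11.15, 10.97 and 11.15 on day 10. It shared the dip of MET6, and its other 3 times lay within a narrow band. SAH1 was lower by -1.58 ± 0.07 on day 6 against log phase (adjusted p = 2.42e-10) and rose by 1.41 ± 0.07 to day 10 (adjusted p = 1.61e-08). In the F test among days 2, 6 and 10, MET6 ranked 71st and SAH1 77th of 5449 genes.

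Both AdoMet synthetase genes dipped as well. SAM1 read 10.15, 10.16 and 9.90 in log phase, 9.48, 10.13 and 10.30 on day 2, 9.02, 9.01 and 9.05 on day 6, and 10.90, 10.61 and 10.68 on day 10. SAM2 read 10.59, 10.75 and 10.29 in log phase, 10.10, 10.71 and 10.83 on day 2, 9.27, 9.20 and 9.10 on day 6, and 9.86, 10.27 and 9.87 on day 10. SAM1 ended above its log phase arrays and SAM2 below all of them. Against log phase the day 6 changes were -1.04 ± 0.16 for SAM1 (adjusted p = 4.01e-05) and -1.35 ± 0.17 for SAM2 (adjusted p = 5.85e-06), and from day 6 to day 10 they rose by 1.70 ± 0.16 and 0.81 ± 0.17 (adjusted p = 1.68e-06 and 0.00121), the latter 0.22 and not called with the covariate (adjusted p = 0.28). From day 2 to day 6 the fall of SAM1 (-0.94 ± 0.16, adjusted p = 0.000193) became 0.16 with the 3' minus 5' covariate, and that of SAM2 (-1.35 ± 0.17, adjusted p = 1.51e-05) became -0.067.

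MET13 and MET12 encode methylenetetrahydrofolate reductases, which make the methyl group that Met6 transfers. MET13 read 6.51, 6.52 and 6.39 in log phase, 7.43, 7.93 and 8.04 on day 2, 7.04, 6.99 and 6.81 on day 6, and 8.21, 8.16 and 8.14 on day 10. It rose, fell and rose again, with no overlap between neighbouring times. The steps of MET13 were 1.33 ± 0.12 (adjusted p = 2.54e-07), -0.85 ± 0.12 (adjusted p = 4.35e-05) and 1.22 ± 0.12 (adjusted p = 2.59e-06), and the middle step was 0.031 with the 3' minus 5' covariate. MET12 had means of 8.39 ± 0.06, 8.50 ± 0.07, 8.47 ± 0.02 and 8.60 ± 0.05 at the 4 times in order, a range of 0.22 that was the narrowest of the 35 genes.

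**Figure D4:**
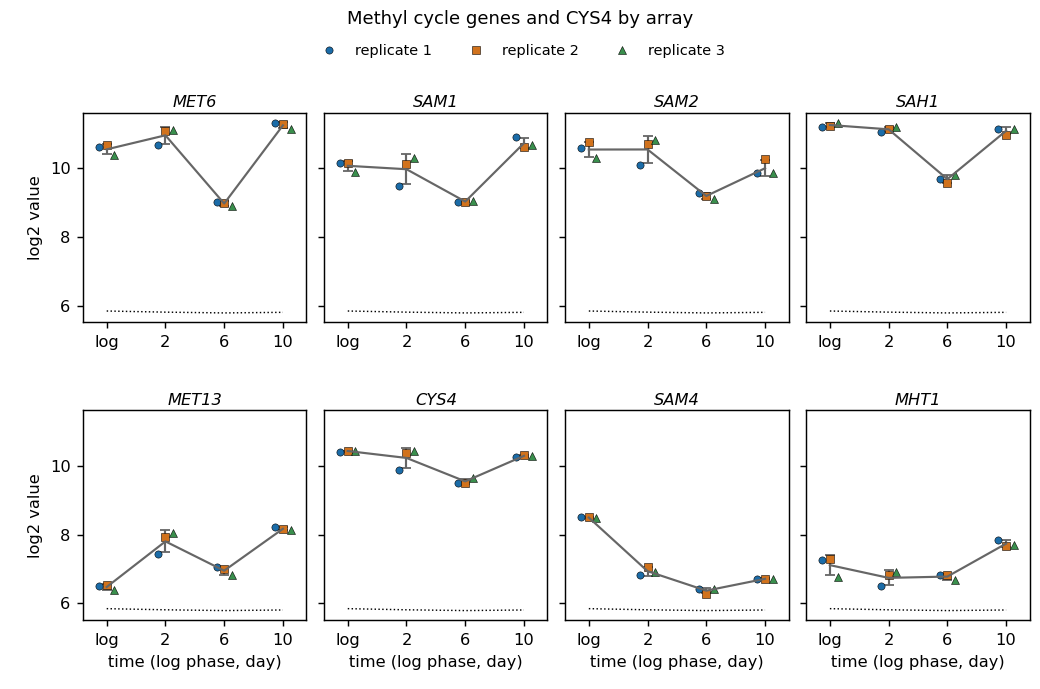
Log2 level (vertical axis) of 7 methyl cycle genes and CYS4 at each time (horizontal axis), with 1 point per array, the line through the means, error bars of 1 SD (n = 3) and the background as a dotted line. MET6, SAM1, SAM2, SAH1 and CYS4 are lowest on day 6, where MET6 has a mean of 8.97 against 10.96 on day 2 and 11.25 on day 10. SAM4 is high in log phase alone.

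The homocysteine methyltransferases SAM4 and MHT1 take methyl groups from AdoMet and from S-methylmethionine to make methionine. SAM4 read 8.50, 8.51 and 8.48 in log phase, 6.81, 7.07 and 6.92 on day 2, 6.40, 6.28 and 6.42 on day 6, and 6.70, 6.72 and 6.72 on day 10. It was high in log phase and low at every later time, the reverse of SUL1. SAM4 was lower than in log phase by -1.56 ± 0.07, -2.13 ± 0.07 and -1.78 ± 0.07 on days 2, 6 and 10 (adjusted p from 6.68e-12 to 1.25e-10), and it was the 1 gene of the 35 lower by at least 2-fold on day 10. MHT1 had means of 7.11 ± 0.30, 6.74 ± 0.22, 6.78 ± 0.09 and 7.74 ± 0.10 and rose by 0.96 ± 0.13 from day 6 to day 10 (adjusted p = 4.04e-05). Its call as lower on day 2 (-0.37 ± 0.13, adjusted p = 0.02) was lost without replicate 1 of that day (-0.25, adjusted p = 0.0903).

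Importers of organic sulfur rose late, except for the AdoMet permease. MMP1, the permease for S-methylmethionine, read 7.39, 7.29 and 6.88 in log phase, 6.50, 6.88 and 6.93 on day 2, 7.34, 7.27 and 7.37 on day 6, and 8.70, 8.58 and 8.58 on day 10. Its day 10 arrays stood more than 1 unit above all others. MMP1 rose by 1.29 ± 0.13 from day 6 to day 10 (adjusted p = 2.11e-06) and was 1.43 ± 0.13 above log phase (adjusted p = 1.84e-07). MUP1, the high-affinity methionine permease, read 9.65, 9.59 and 8.99 in log phase, 8.84, 9.70 and 9.79 on day 2, 10.34, 10.40 and 10.34 on day 6, and 10.42, 10.53 and 10.40 on day 10. MUP1 was therefore higher on days 6 and 10 than at both earlier times. It was higher than in log phase by 0.95 ± 0.21 on day 6 (adjusted p = 0.000965), which became -0.24 when centred on the hybridisation controls, and by 1.04 ± 0.21 on day 10 (adjusted p = 0.000512).

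MUP3, the low-affinity methionine permease, read 8.46, 8.53 and 8.12 in log phase, 7.09, 7.47 and 7.52 on day 2, 8.73, 8.56 and 8.57 on day 6, and 8.84, 9.50 and 8.76 on day 10. It was lowest on day 2, with no overlap with the other times. MUP3 was lower on day 2 by -1.01 ± 0.18 (adjusted p = 0.000127), or -0.87 without replicate 1, and rose by 1.26 ± 0.18 to day 6 (adjusted p = 3.51e-05). SAM3, the AdoMet permease, read 8.73, 8.77 and 8.14 in log phase, 9.20, 9.52 and 9.55 on day 2, 8.79, 8.78 and 8.73 on day 6, and 8.23, 8.80 and 8.24 on day 10. In contrast to MUP3 it was highest on day 2. SAM3 was higher there by 0.88 ± 0.17 than in log phase (adjusted p = 0.000364) and lower by -1.0 ± 0.17 on day 10 than on day 2 (adjusted p = 0.000206). With the 3' minus 5' covariate these were 0.48 and -0.57 and neither was called (adjusted p = 0.102 and 0.094).

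The log phase values of the importers depended on replicate 3, which was lowest of the log phase arrays for 22 of the 35 genes, against 34.0% of all genes. The 4 importers lay below the other log phase arrays there with a median difference of -0.54, and with SAM3 at 8.14, MUP1 at 8.99 and MMP1 at 6.88 on that array their log phase SDs were 0.35, 0.37 and 0.27. Among the stationary phase markers, HSP12 (9.09, 9.0 and 10.45) and HSP26 (7.78, 7.74 and 9.12) were highest on that array, as were the others except SPG4. SPG4 was lowest there (8.04, 7.84 and 7.11). The part of these markers in the importer values was not tested. On day 10, replicate 2 was highest for 22 of the 35 genes, against 35.6% of all genes.

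Among the regulators, MET4, the activator of the pathway, and MET30, which restrains it, both rose. MET4 read 8.19, 8.04 and 8.17 in log phase, 8.64, 8.47 and 8.47 on day 2, 9.32, 9.19 and 9.21 on day 6, and 9.28, 9.32 and 9.29 on day 10. MET30 read 7.88, 7.77 and 7.78 in log phase, 8.56, 9.16 and 9.42 on day 2, 9.68, 9.76 and 9.63 on day 6, and 9.49, 9.74 and 9.51 on day 10. Both genes stepped up to day 2 and to day 6 with no overlap and then held. MET4 was higher than in log phase by 1.10 ± 0.06 on day 6 and by 1.16 ± 0.06 on day 10 (adjusted p = 2.09e-09 for both), and the day 6 value became -0.085 when centred on the hybridisation controls. MET30 was higher by 1.24 ± 0.16, 1.88 ± 0.16 and 1.77 ± 0.16 on days 2, 6 and 10 (adjusted p from 7.57e-08 to 6.29e-06). Over the 6 regulators, all 6 were called higher on days 6 and 10 than on day 2 (35.2% and 34.9% of all genes), with medians of 0.68 in both comparisons; centred on the hybridisation controls 1 was higher and 1 lower on day 6, and 0 either way on day 10.

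The paralogous zinc finger factors MET31 and MET32 differed against log phase. They stood higher on day 10 than on day 2 by like amounts, but over different courses. MET31 read 8.17, 8.30 and 8.15 in log phase, 6.72, 6.83 and 6.66 on day 2, 7.50, 7.30 and 7.55 on day 6, and 7.64, 7.42 and 7.72 on day 10. MET32 read 7.58, 7.59 and 7.04 in log phase, 6.96, 7.46 and 7.37 on day 2, 8.69, 8.65 and 8.68 on day 6, and 8.04, 8.38 and 7.94 on day 10. MET31 was highest in log phase and lowest on day 2, and MET32 was highest on day 6. MET31 was lower by -1.46 ± 0.09 on day 2 against log phase (adjusted p = 3.32e-09) and rose by 0.71 ± 0.09 to day 6 (adjusted p = 1.07e-05), which became -0.055 when centred on the hybridisation controls and lost its call with the covariate (0.65, adjusted p = 0.0594). MET32 rose by 1.41 ± 0.16 from day 2 to day 6 (adjusted p = 5.26e-06) and fell by 0.55 to day 10 (SE 0.16, adjusted p = 0.00862), the 1 gene of the 35 called lower in that last interval. Against log phase MET32 was higher by 1.27 ± 0.16 on day 6 (adjusted p = 5.21e-06) and by 0.71 ± 0.16 on day 10 (adjusted p = 0.00102), which became -0.26 when centred on the hybridisation controls. MET31 rose by 0.86 ± 0.09 (adjusted p = 1.97e-06) and MET32 by 0.86 ± 0.16 (adjusted p = 0.00037) from day 2 to day 10, and centred on the hybridisation controls both were at 0.31 and not called (adjusted p = 0.0839 and 0.0879).

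CBF1, the DNA-binding partner of Met4 that also binds centromeres, had means of 6.26 ± 0.04, 6.63 ± 0.12, 6.95 ± 0.03 and 6.99 ± 0.07 at the 4 times in order. MET28, the small leucine zipper partner, had means of 6.37 ± 0.16, 6.92 ± 0.33, 7.42 ± 0.10 and 7.51 ± 0.16. Both climbed until day 6: on day 10 CBF1 was 0.72 ± 0.06 above log phase (adjusted p = 2.20e-07), which became -0.24 when centred on the hybridisation controls, and MET28 was 1.14 ± 0.14 above it (adjusted p = 4.66e-06). MET18, which despite its name serves cytosolic iron-sulfur protein assembly, had means of 8.35 ± 0.07, 7.75 ± 0.16, 7.48 ± 0.03 and 7.69 ± 0.09. It was lower on day 2 by -0.59 ± 0.08 (adjusted p = 9.08e-06) and stayed below its log phase arrays at all later times.

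The genes of 7 pairs with the same or a related activity changed unequally. For each pair the log2 difference between both genes was taken on each array and set to 0 at the log phase mean. It was compared over the 4 times with an exact permutation F test (15400 partitions of the 12 arrays, one-sided, adjusted over the 7 pairs). The F test of single genes over the 4 times called 95.5% of all genes, and no pairs of other genes were tested. Unequal change can therefore not be called particular to these pairs. This difference is the same under any scaling of whole arrays. SUL1 gained on SUL2 by 0.92 ± 0.41, 1.90 ± 0.19 and 2.29 ± 0.10 on days 2, 6 and 10 (SD, n = 3, adjusted p = 0.000227 by the exact permutation test, from the smallest p it can give). No 2 times overlapped for this pair, but SUL1 lay below background on 2 of 3 log phase arrays, so the sizes relative to log phase are not exact. SAM4 lost against MHT1 by -1.19 ± 0.16, -1.79 ± 0.15 and -2.41 ± 0.11 (adjusted p = 0.000227, exact permutation test), also with no overlap between times.

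SAM1 relative to SAM2 stood at -0.10 ± 0.05, 0.31 ± 0.10 and 1.21 ± 0.36 on days 2, 6 and 10 (SD, n = 3, adjusted p = 0.000341, exact permutation test). Log phase and day 2 overlapped and each later day lay above. SAM1 and SAM2 are close in sequence, and signal shared between their probes was not tested. Relative to log phase, the gene of the AdoMet importer first gained on that of the S-methylmethionine importer and then lost against it. SAM3 relative to MMP1 was at 1.29 ± 0.03, 0.08 ± 0.08 and -1.56 ± 0.36 on days 2, 6 and 10 (adjusted p = 0.000364, exact permutation test).

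MET12 relative to MET13 was at -1.22 ± 0.37, -0.39 ± 0.13 and -1.48 ± 0.07 on days 2, 6 and 10 (SD, n = 3, adjusted p = 0.000341, exact permutation test). MET31 relative to MET32 was at -1.32 ± 0.25, -2.02 ± 0.12 and -1.32 ± 0.38 (adjusted p = 0.00144, exact permutation test), lowest on day 6. Among the methionine permeases, MUP1 gained on MUP3 by 1.04 ± 0.29 on day 2 and 0.70 ± 0.12 on day 6, and at 0.38 ± 0.34 on day 10 its arrays overlapped those of log phase (adjusted p = 0.00429, exact permutation test).

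**Figure D5:**
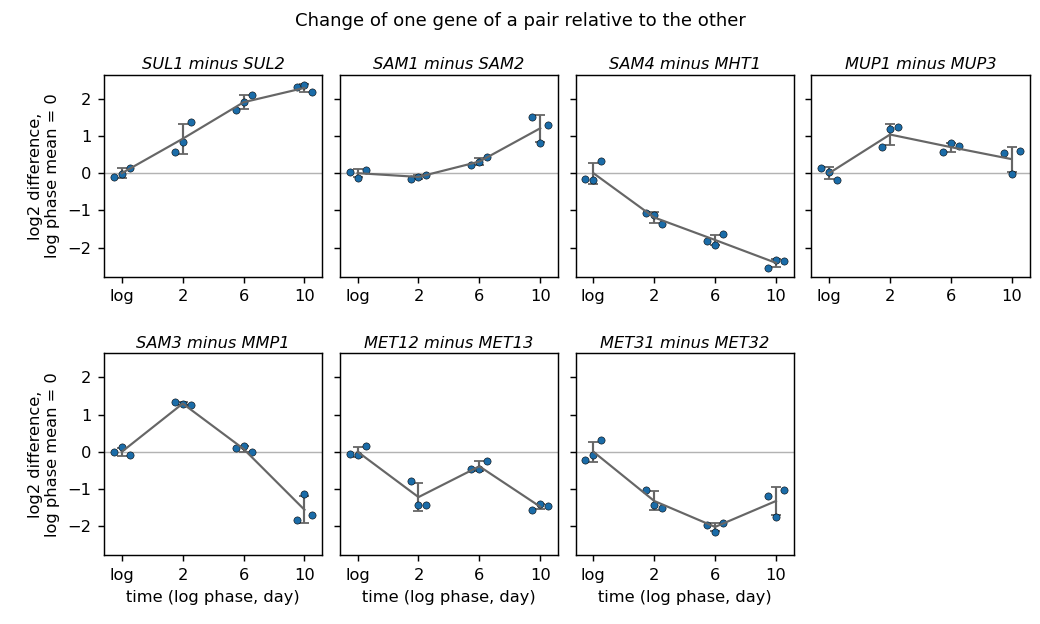
Log2 difference between the genes of each of 7 pairs on each array (vertical axis, log phase mean set to 0) by time (horizontal axis), with 1 point per array, the line through the means and error bars of 1 SD (n = 3). SUL1 gains on SUL2 to a mean of 2.29 and SAM4 loses against MHT1 to -2.41 on day 10, while SAM3 minus MMP1 goes from 1.29 on day 2 to -1.56 on day 10.

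Neighbouring pathways were examined on the same arrays through lists outside the 35 genes. On day 10 against log phase 39.5% of all genes were called higher and 39.8% lower, and 28.8% and 32.1% on day 10 against day 6. Of 12 genes that supply homoserine and one-carbon units, 5 were called higher and 3 lower on day 10 than in log phase. On day 10 against day 6, 8 were higher and 1 lower. The share called higher against log phase was near that of all genes. Centred on the hybridisation controls, 0 were higher and 11 lower in the first comparison, and 8 and 0 in the second. HOM2, aspartate semialdehyde dehydrogenase, had means of 9.63, 9.40, 8.18 and 10.20 at the 4 times in order, the dip shown by the methyl cycle, and rose by 2.02 ± 0.10 from day 6 to day 10 (adjusted p = 8.54e-09). SHM2, cytosolic serine hydroxymethyltransferase, rose by 1.63 ± 0.08 in that interval, MTD1, a cytosolic folate dehydrogenase, by 1.53 ± 0.09, and HOM3, aspartate kinase, by 1.43 ± 0.06. Against log phase, day 10 showed HOM3 at 1.22 ± 0.06 (0.26 and not called when centred on the hybridisation controls), SHM2 at 0.62 ± 0.08 (-0.35 when centred on the hybridisation controls), HOM6, homoserine dehydrogenase, at -0.59 ± 0.10 and GCV3, a subunit of the glycine cleavage system, at -1.12 ± 0.10.

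Of 8 measured genes for the use of other sulfur sources, 5 were called higher and 3 lower on day 10 than in log phase. Among all genes 39.5% were called higher and 39.8% lower, so the share called lower was near that of all genes. Centred on the hybridisation controls, the counts were 2 and 5. JLP1, the dioxygenase that releases sulfite from sulfonates, had log phase values of 5.95, 5.95 and 6.00, close to background, and was higher by 1.72 ± 0.11 on day 10 (adjusted p = 7.74e-09). YCT1, the cysteine transporter, was higher by 1.41 ± 0.21 (adjusted p = 3.69e-05), and the permease gene AGP3, with 2 of 3 log phase arrays below background, by 1.15 ± 0.14 (adjusted p = 4.45e-06), or 0.18 and not called when centred on the hybridisation controls. GNP1, a broad amino acid permease, was lower by -0.67 ± 0.12. PDC6, a minor pyruvate decarboxylase isozyme known to be induced by sulfur limitation, had means of 8.39 ± 0.20, 10.50 ± 0.40, 10.00 ± 0.33 and 9.82 ± 0.08 (SD) at the 4 times in order, and was 1.43 ± 0.19 above log phase on day 10 (adjusted p = 9.09e-06). On replicate 1 of day 2 PDC6 differed from the other day 2 arrays by -0.51. There 6 of the 8 genes for other sulfur sources lay below them with a median of -0.23, and 4 of the 9 stationary phase markers with a median of 0.02. So did 8 of the 10 glutathione genes (median -0.11), 3 of the 4 Met30 partners (-0.14), 7 of the 12 homoserine and one-carbon genes (-0.05) and 6 of the 12 salvage and polyamine genes (-0.0075). The median over all genes was -0.02 and their share below was not counted. The low values can therefore not be called particular to the genes for other sulfur sources.

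In contrast, 8 of 12 genes of methionine salvage and polyamine synthesis were called lower on day 10 than in log phase and 1 was higher. The shares of all genes were 39.8% and 39.5%. Centred on the hybridisation controls, the counts were 12 and 0. MRI1, an isomerase of methionine salvage, was lower by -1.51 ± 0.07, SPE3, spermidine synthase, by -1.26 ± 0.06, ARO9, an aromatic aminotransferase, by -1.15 ± 0.07 and MDE1, a dehydratase of methionine salvage, by -0.97 ± 0.08. Of 10 glutathione genes 5 were higher and 3 lower, beside 39.5% and 39.8% of all genes. Centred on the hybridisation controls, 1 was higher and 5 were lower. ECM38, which degrades glutathione, was at 1.60 ± 0.06 and GSH2, glutathione synthetase, at -1.40 ± 0.07, while the transferases GTT1 and GTT2 were at 0.85 ± 0.09 and 0.81 ± 0.07, or -0.12 and -0.16 when centred on the hybridisation controls. Of the 4 partners of Met30 in its ubiquitin ligase, CDC34, the ubiquitin-conjugating enzyme, was higher by 1.32 ± 0.10 (adjusted p = 4.66e-08), SKP1 was lower by -0.59 ± 0.06 and HRT1 by -0.19 ± 0.06, and the fourth, CDC53, was not called (adjusted p = 0.581). Of both methionine sulfoxide reductase genes MXR2 was lower by -0.38 ± 0.07 (adjusted p = 0.000335) and MXR1 was not called.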

How the data were processed

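RNA of 12 samples was measured on Affymetrix yeast arrays. The deposited log2 values summarise each probe set by PLIER, as the submitters' processing notes name it. The sources used here give neither its version nor its settings. The log2 scale was taken from their range (5.11 to 13.79), as no label or header names the scale of the deposited column. Low signals are compressed towards the floor of this scale, which understates changes of dim genes.

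Genes were named through the platform annotation and a RefSeq table of strain S288C rather than CENPK 113-7D. The tests covered 5449 genes with 5498 probe sets. The brightest probe set stood for each of 47 genes with several. Sequences and coordinates were not used here, so the promoter motifs planned for description are not reported.

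A linear model with 1 coefficient per time was fitted to all genes with limma 3.58.1 in R 4.3.3 (8 residual degrees of freedom, 12.89 in all), with Benjamini-Hochberg adjustment over the 5449 genes in each of 6 contrasts and 2 F tests. Adjusted p-values of single genes come from limma, and gene pairs were compared by exact permutation. In a simulation of the day 2 comparison in which 200 of the 5449 genes were altered, the fit recovered 32% of 50 genes changed by 0.25, 96% at 0.5 and 100% at 1 and at 2, with 10 false calls. The closest pair of arrays correlated at 0.998 with a median absolute difference of 0.0566, and no array repeats another.

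The 35 genes, the lists and the tests were chosen with earlier results of these data known. Each of the 35 is named with its level at each time. Changes are given for called genes with a change of at least 1 and for up to 5 others per contrast, and up to 4 called genes with the largest change are named per list. Genes named for a call that depends on 1 day 2 array, for a step that was not called, or for being the 1 exception to a count were added after their values were seen. Same-numbered replicates of different times had correlations of their deviations from -0.29 to 0.39 (median 0.01, n = 18), so the numbers do not pair the samples. Alternatives are given in the closing section. No deposited column was left out.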

Additional observations from a re-analysis of the deposited data

How the results depend on the processing

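The arrays are few and the scale between them is unstated, so the direction of a change against log phase rests on the scaling. The counts of the 35 genes called, which were steady unless named here, moved as follows. Centred on the hybridisation controls, and then on those without bioB, day 2 against log phase had 18 lower (first centring only), day 6 had 4 and 6 higher and 23 and 20 lower, and day 10 had 10 and 15 higher and 13 and 9 lower. Day 6 against day 2 had 4 and 3 higher and 22 and 22 lower, day 10 against day 6 had 0 and 0 lower, and day 10 against day 2 had 8 and 7 higher and 10 and 10 lower. These follow from the shift of all genes, which without bioB was -0.05, -0.86 and -0.64 on days 2, 6 and 10 against log phase. With the 3' minus 5' covariate, day 2 against log phase had 9 higher and 17 lower, day 6 against day 2 had 3 lower, day 10 against day 6 had 8 lower and day 10 against day 2 had 1 lower. The cause was not tested. With the arrays of a comparison alone, day 10 against day 6 had 2 lower. Leaving out 1 array at a time gave 6 to 11 lower on day 2 and 3 to 6 lower on day 10 against log phase, 1 to 2 lower on day 10 against day 6 and 2 to 5 lower on day 10 against day 2.

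Changes of named genes that turned sign centred on the hybridisation controls were SAM2 on day 2 (-0.42), on day 6 MET16 (-0.20), MET5 (-0.22), MET17 (-0.24), MUP1 (-0.24), MET4 (-0.085) and MET28 (-0.14), and on day 10 MET14 (-0.13), MET1 (-0.16), MET6 (-0.27), CBF1 (-0.24), MET32 (-0.26), SHM2 (-0.35), GTT1 (-0.12) and GTT2 (-0.16), all against log phase. From day 2, MET31 on day 6 (-0.055) and MET6 on day 10 (-0.26) turned too. Without bioB, SHM2 was at -0.023, MET31 at -0.095 and MET6 at -0.30 in the same comparisons. With the 3' minus 5' covariate, MET1 (-0.42) and SAM2 (-0.64) turned on day 2 against log phase, MET3 (1.53), MET5 (1.50), MET17 (1.01), MET13 (0.031) and SAM1 (0.16) from day 2 to day 6, and MET5 (0.82) from day 2 to day 10. The replicate number as a block, which has no basis in pairing here, gave 25 higher and 5 lower on day 10 against log phase and changed no call of a named gene. Quantile normalization, a filter on dim genes, averaging probe sets of 1 gene and a trended, robust prior changed no call of a named gene either. An offset of 16 ended 1 call (MET3 from day 2 to day 6, -0.63) and median centring 1 (MET6 from day 2 to day 10, 0.26). The pair tests kept their side of the threshold with the offset and with each array left out, with a largest adjusted p of 0.0167 (MUP1 and MUP3, exact permutation).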
